A study of Mus musculus with 6 samples.

Results

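The cytosolic ribosomal protein genes encode the proteins of the 40S and 60S subunits of the ribosome that translates nuclear-encoded mRNAs. They were taken by symbol from the deposited gene table as Rpsa, Rplp0, Rplp1, Rplp2 and every Rpl or Rps symbol with a number and at most 1 further letter, leaving out the Rps6k kinases and the symbols marked as pseudogenes, and they needed a mean over the 6 mice above 1 CPM, the count of a gene scaled to the total of its library. Of 24054 genes in the table, 81 had such a symbol and 78 passed the level filter, 32 of the 40S subunit and 46 of the 60S subunit. All 78 were among the 14568 genes tested. The 3 genes under the filter were the paralogs Rpl10l, with 0 counts in every library, Rpl39l, with at most 4 counts in a library, and Rpl3l, with at most 5. Rps3a1 and Fau, which also encode ribosomal proteins, have names outside the rule and are described with the related genes.

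RNA-seq was performed on 3 MitoParks and 3 littermate controls, aged 16 to 17 weeks and untreated. MitoParks were Dat+/Cre: Tfam LoxP/LoxP, in which Cre recombinase made from the dopamine transporter (Dat) locus deletes Tfam, the mitochondrial transcription factor, in cells that express this transporter. Littermate controls were Tfam+/LoxP: Dat+/+, so they also carried 1 floxed Tfam allele but no Cre. The study's methods allow such controls to come from litters of MitoParks or of the parental strain. The litter of each mouse was not given. The labels give C57BL/6 for the controls and describe MitoParks as derived from it. The labels give brain tissue and the study's methods the substantia nigra (SN), a midbrain region of dopaminergic (DAergic) neurons. The sex of each mouse was not given. In bulk tissue, fewer cells of a type and less RNA per cell cannot be told apart.

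Every cell needs ribosomal proteins in near-equal numbers, since each ribosome holds 1 copy of nearly all of them. Their mRNAs are short and abundant, and most are known to start with a 5′ terminal oligopyrimidine (TOP) tract, a C followed by a run of C and T through which the mTOR kinase and its partner Larp1 set how well they are translated. A change in that control acts on translation and need not alter the mRNA level measured here. Ribosomal protein genes have also left many processed pseudogenes, copies of the mRNA inserted elsewhere in the genome, from which reads are hard to separate.

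Library depth ranged from 8140777 to 10528602 expected counts, the read numbers that RSEM assigns to a gene after dividing ambiguous reads, and 3 counts corresponded to 0.285 to 0.366 CPM. Tfam was at 43.4 ± 2.71 CPM (SD, n = 3) in the controls and 33.0 ± 0.284 CPM in MitoParks, with no overlap between the groups (edgeR's quasi-likelihood test, log2 fold change -0.40 ± 0.11 SE, unadjusted p = 0.00565, adjusted p = 0.999 by Benjamini-Hochberg). The 9 markers of DAergic neurons were detected in all libraries, with a summed level of 529 to 1647 CPM in the controls and 344 to 653 CPM in MitoParks, the highest in control 3. Among the marker lists, Slc6a3, the dopamine transporter itself, was at 72.6, 65.3 and 383 CPM in the controls and 13.3, 51.1 and 40.9 CPM in MitoParks (log2 fold change -2.30, unadjusted p = 0.00895), and without control 3 its log2 fold change was -0.97 (unadjusted p = 0.023). MitoParks were Dat+/Cre and the controls Dat+/+ at this gene, so the Cre allele and a loss of cells cannot be told apart in its level. C1qa, a complement gene of microglia, had a log2 fold change of 0.34 (unadjusted p = 0.031), with an unadjusted p of 0.0953 without control 1, 0.0794 without control 2 and 0.119 without MitoPark 3. Both had an adjusted p of 0.999. The 6 oligodendrocyte markers summed to 6697, 9454 and 17757 CPM in the 3 controls and to 9203, 11941 and 15111 CPM in MitoParks, a wide range within each group.

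With all 6 mice and no replicate term, no cytosolic ribosomal protein gene passed the test between MitoParks and littermate controls. An unadjusted p below 0.05 was found for 0 of the 78 genes by edgeR's quasi-likelihood test, 0 by DESeq2 and 0 by limma-voom, against 1.11% of all tested genes by the first test. None passed the cutoffs of the study, a p below 0.05 with a fold change above 1.5, which 0.577% of tested genes passed. For none were there groups that did not overlap, against 4.71% of tested genes. The smallest unadjusted p of the 78 was 0.198, for Rps4l, and every adjusted p was 0.999. With 3 mice against 3, an exact permutation test cannot give a two-sided p below 0.1.

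The fitted differences were small and mostly of 1 sign. The median log2 fold change (MitoPark over control) of the 78 genes was 0.08, a fold of 1.06, with quartiles of 0.06 and 0.11, beside a median of -0.0047 over all tested genes. The fitted level was higher in MitoParks for 76 of the 78 genes, against 48.6% of tested genes. It was higher for 32 of 32 genes of the 40S subunit, with a median log2 fold change of 0.09, and for 44 of 46 genes of the 60S subunit, with a median of 0.08. These 78 differences do not count as separate observations, because the genes went up and down together from mouse to mouse, as described next. The SE of a single gene's log2 fold change had a median of 0.12, and the 95% interval contained 0 for each of the 78 genes. Only for Rpl26, Rpl30, Rpl34, Rps4l and Rps27l did the upper end of the interval reach beyond a fold change of 1.5.

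**Figure D1:**
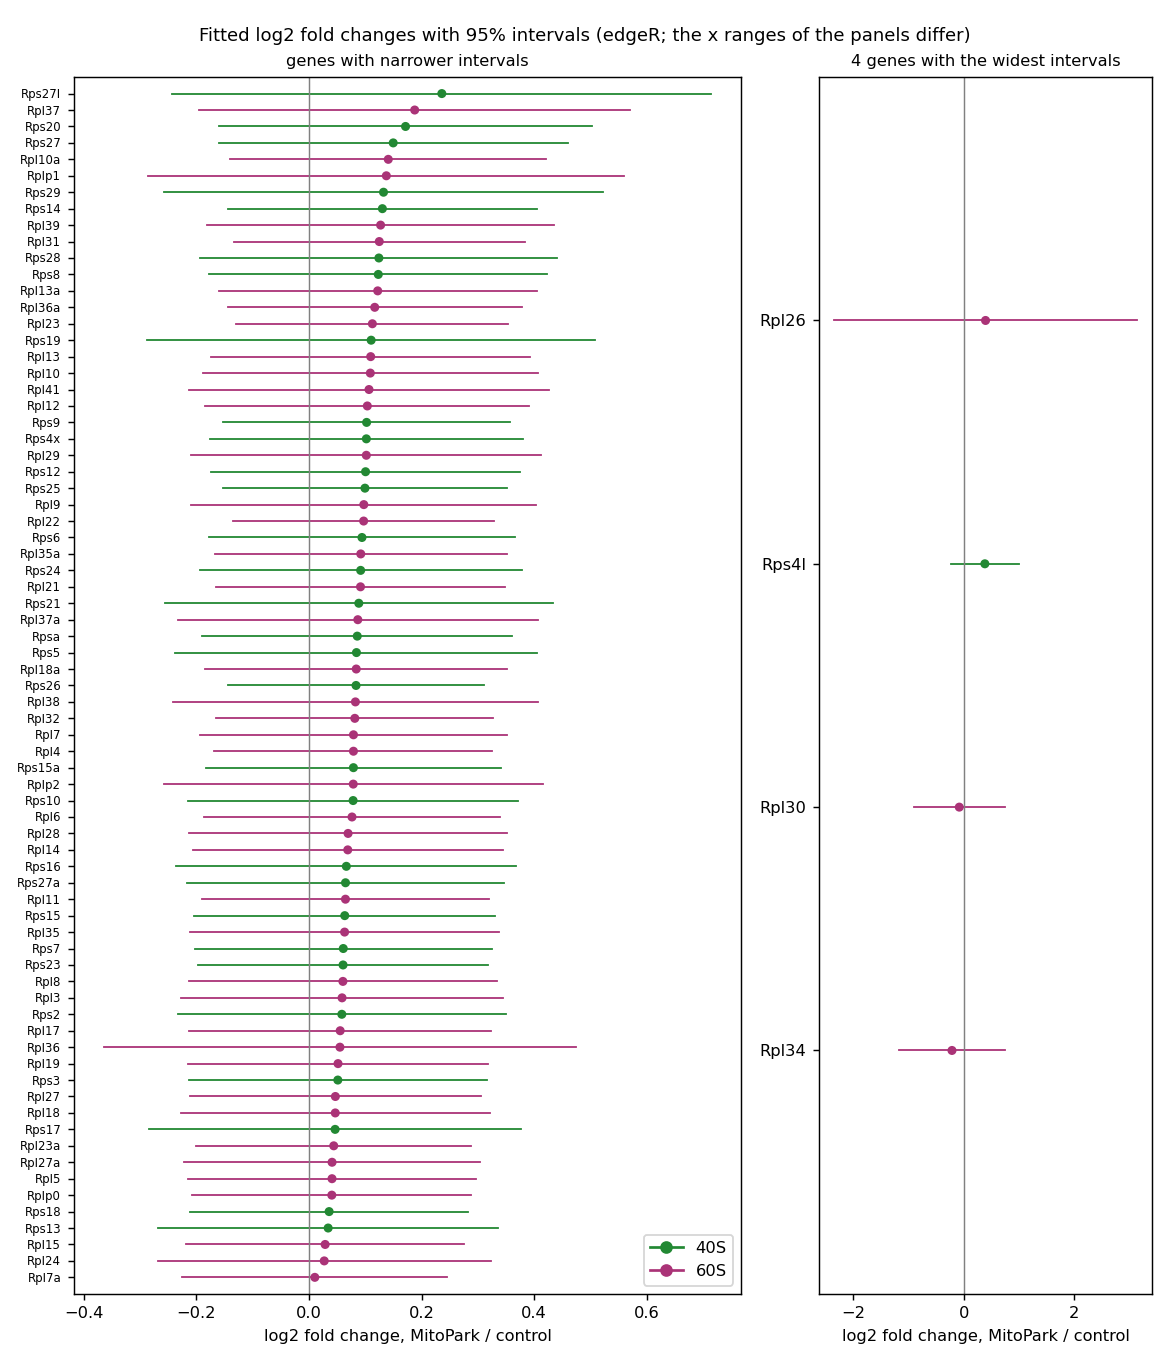
Fitted log2 fold change (MitoPark over control, x axis) of the cytosolic ribosomal protein genes (y axis), with points for the edgeR estimate over 3 against 3 mice and lines for the 95% interval, green for the 40S and purple for the 60S subunit. The right panel, on a wider scale, holds the 4 genes with the widest intervals, and 1 gene is not drawn. Every interval contains 0, and all points but those of Rpl30 and Rpl34 lie above 0.

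The level of the whole group varied between mice of the same genotype by more than the means of the genotypes differed. Together the 78 genes held 1.53%, 1.78% and 1.47% of all expected counts in the 3 controls and 1.85%, 1.52% and 1.74% in MitoParks. Control 2, MitoPark 1 and MitoPark 3 were the 3 high libraries, and control 1, control 3 and MitoPark 2 the 3 low ones. The share was 1.59 ± 0.165% (SD, n = 3) in the controls and 1.70 ± 0.168% in MitoParks, a difference of 0.111 percentage points that is smaller than either SD. After TMM normalization the summed level was 15186, 17803 and 15065 CPM in the controls and 18376, 15423 and 17088 CPM in MitoParks.

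Single genes followed the same order. On the log2(CPM + 0.5) scale, the median distance of the 78 genes from their own means over the 6 mice was -0.12, 0.12 and -0.13 in controls 1 to 3 and 0.16, -0.08 and 0.06 in MitoParks 1 to 3. MitoPark 1 held the highest value of 41 genes and control 2 that of 24, while control 1 held the lowest value of 34 and control 3 that of 32. MitoPark 1 exceeded all 3 controls for 45 genes. Mice of the same number were not treated as pairs. Between them, MitoPark 1 exceeded control 1 for 76 genes and MitoPark 3 exceeded control 3 for 78. In the remaining comparison control 2 exceeded MitoPark 2 for 76. Over the 6 mice, 59 of the 78 genes had a Pearson correlation above 0.8 with this group median, which contains each gene itself. Rpl5, Rpl22 and Rpl30 had a correlation below 0.5.

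**Figure D2:**
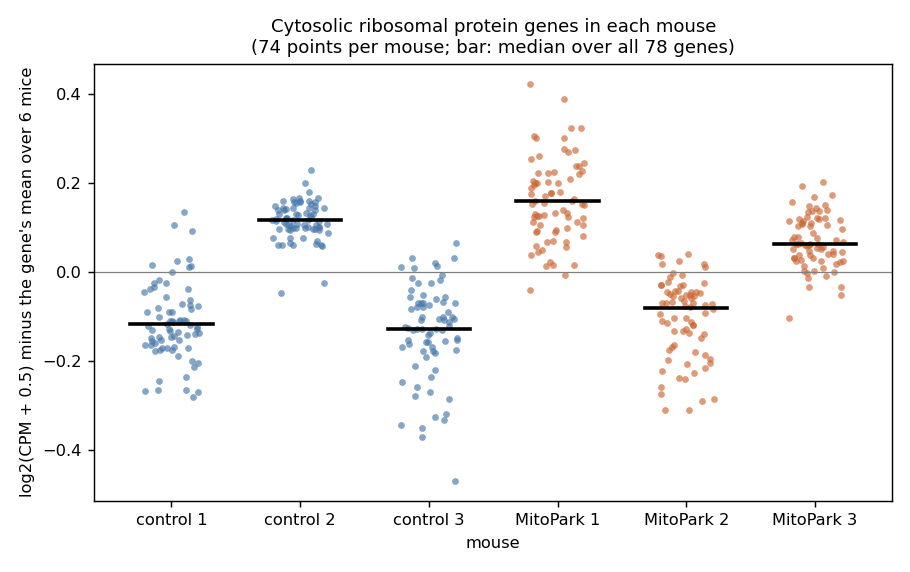
Level of the cytosolic ribosomal protein genes in each of the 6 mice (x axis), as log2(CPM + 0.5) minus the gene's mean over all mice (y axis). Each point is a gene, the bars are medians over the 78 genes, and the 4 genes with the widest intervals (Rpl26, Rpl30, Rpl34 and Rps4l) are in the bars but not drawn as points. Control 2, MitoPark 1 and MitoPark 3 lie above 0 and the other 3 mice below, so the groups overlap.

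Other measures also differed between these mice. The 615 other genes with a transcript of at most 1000 bases and a mean above 10 CPM had a median distance from their means of -0.09, 0.09 and 0.00376 in the controls and 0.06, -0.06 and 0.02 in MitoParks, the same signs as the ribosomal protein genes except in control 3. Among cell type markers, the summed choroid plexus markers were highest in control 2, at 147 CPM against 7.14 to 35.5 CPM in the other mice, and the DAergic and oligodendrocyte markers were highest in control 3. The part of transcript length, tissue make-up or RNA quality in the shift was not tested.

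Because each group held high and low libraries, the group median depended on single mice. Its log2 fold change was 0.04 without control 1, 0.16 without control 2, 0.04 without control 3, 0.03 without MitoPark 1 and 0.15 without MitoPark 2, against 0.08 with all 6 mice and 0.07 without MitoPark 3. The number of genes with a higher fitted level in MitoParks then ranged from 57, without MitoPark 1, to 77, without MitoPark 2.

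The 4 most abundant genes, Rpl3, Rpl4, Rpsa and Rpl21, had an SE of the log2 fold change of 0.11 to 0.13, close to the median of 0.12 over the 78 genes. Rpl3, a protein of the peptidyl transferase region, had the highest level, at 688, 821 and 663 CPM in the controls and 812, 708 and 742 CPM in MitoParks (log2 fold change 0.06 ± 0.13 SE, unadjusted p = 0.655). Rpl4 was at 492, 570 and 516 CPM in the controls and 558, 547 and 562 CPM in MitoParks (0.08 ± 0.11 SE, unadjusted p = 0.489). For both genes the groups overlapped, and control 2 was the highest of the 6 mice. Rpsa, a 40S protein that is also known as a laminin receptor, was at 415, 514 and 434 CPM in the controls and 503, 450 and 493 CPM in MitoParks (log2 fold change 0.09 ± 0.12 SE). Rpl21 was at 393, 475 and 419 CPM in the controls and 468, 446 and 457 CPM in MitoParks (0.09 ± 0.11 SE). MitoParks were less spread than controls in Rpl21, with an SD of 10.8 CPM against 41.8 CPM, which was not tested.

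Among 40S genes with a role beyond the subunit's structure, Rps6, the target of the S6 kinases downstream of mTOR, was at 367, 452 and 411 CPM in the controls and 435, 410 and 469 CPM in MitoParks. The log2 fold change of Rps6 was 0.09 ± 0.12 (SE) with a 95% interval of -0.18 to 0.37 (unadjusted p = 0.454). Rps27a, which is made as a fusion with ubiquitin, was at 255, 301 and 252 CPM in the controls and 313, 251 and 281 CPM in MitoParks. It followed the group median closely (Pearson correlation 0.981 over the 6 mice), with a log2 fold change of 0.06 ± 0.12 SE. Rps20 had the highest fold change of the 40S genes coding for the standard proteins, 0.17 ± 0.15 SE (unadjusted p = 0.272), at 77.1, 89.7 and 71.9 CPM in the controls and 103, 72.8 and 92.7 CPM in MitoParks. MitoPark 2 was within the control range, so the groups overlapped, and without MitoPark 2 the log2 fold change of Rps20 was 0.31 (edgeR's quasi-likelihood test, unadjusted p = 0.0425, adjusted p = 0.963).

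The stalk of the 60S subunit, which recruits translation factors, is built from Rplp0, Rplp1 and Rplp2. Rplp0 was at 151, 181 and 151 CPM in the controls and 171, 158 and 168 CPM in MitoParks (log2 fold change 0.04 ± 0.11 SE). Rplp1 was at 202, 219 and 159 CPM in the controls and 268, 161 and 209 CPM in MitoParks (0.14 ± 0.19 SE). Rplp2 was at 77.6, 85.5 and 61.1 CPM in the controls and 90.1, 69.3 and 77.6 CPM in MitoParks (0.08 ± 0.15 SE). For all 3 the mouse order was that of the group in its extremes, with MitoPark 1 or control 2 the highest and control 3 the lowest, and Rplp1 varied more over the 6 mice (SD 0.284 on the log2 scale) than Rplp0 (SD 0.107).

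Rpl5 and Rpl11 bind the 5S rRNA, and outside the ribosome the same particle inhibits Mdm2, which degrades p53. Rpl5 was at 268, 324 and 312 CPM in the controls and 297, 305 and 329 CPM in MitoParks, with a log2 fold change of 0.04 ± 0.11 SE and a 95% interval of -0.22 to 0.30. Unlike most of the group it was high in control 3, and its correlation with the group median was 0.426. Rpl11 was at 182, 224 and 195 CPM in the controls and 218, 195 and 216 CPM in MitoParks, with a log2 fold change of 0.06 ± 0.11 SE and a correlation of 0.93.

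The 4 X-linked genes are Rps4x, Rpl10, Rpl36a and Rpl39. Rps4x was at 264 ± 36.7 CPM (SD, n = 3) in the controls and 283 ± 14.7 CPM in MitoParks (log2 fold change 0.10 ± 0.12 SE). Rpl10, a late-joining protein of the 60S subunit, was at 306 ± 39.2 CPM in the controls and 330 ± 34.1 CPM in MitoParks (0.11 ± 0.13 SE). Rpl36a was at 75.5, 98.1 and 85.1 CPM in the controls and 93.2, 92.1 and 95.4 CPM in MitoParks (0.12 ± 0.12 SE), and Rpl39, a small protein of the exit tunnel, at 59.2 ± 7.43 CPM in the controls and 64.7 ± 8.37 CPM in MitoParks (0.13 ± 0.14 SE). The 4 fold changes fell within the range of the autosomal genes.

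Of the remaining 60S genes at the ends of the range, Rpl37 had a log2 fold change of 0.19 ± 0.17 SE, at 146, 150 and 113 CPM in the controls and 189, 122 and 155 CPM in MitoParks. MitoPark 2 was lower than 2 of the 3 controls. Rpl24 and Rpl7a were the nearest to equality, with log2 fold changes of 0.03 ± 0.13 SE and 0.01 ± 0.10 SE.

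Per kilobase of transcript the genes spanned a wide range although their products are used in near-equal numbers. The median over the 78 genes was 269 CPM per kb, the quartiles were 176 and 358, and the extremes were 18.3 CPM per kb for Rps27l and 591 for Rps15, using the shortest principal transcript of each gene, between 271 and 3706 bases. Rps27l, a paralog of Rps27 known as a p53 target, was also the lowest in total level. It was at 9.91, 8.83 and 6.35 CPM in the controls and 11.0, 8.39 and 10.2 CPM in MitoParks, with a log2 fold change of 0.24 ± 0.21 SE (unadjusted p = 0.295). Rps27 was at 469 CPM per kb. Low values of Rpl30, at 22.0 CPM per kb, and of Rpl34, at 67.2 CPM per kb, were those of genes whose reads were shared with a copy. Rps20 was at 22.8 CPM per kb over the longest transcript used, 3706 bases, and Rps4l at 30.0 CPM per kb.

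Rpl26, Rpl30 and Rpl34 stood apart from the group on their own, but not when each was summed with a processed pseudogene copy listed in the same table. Rpl26 had 1735, 863 and 0 expected counts in the controls and 2329, 216 and 497 in MitoParks, the widest spread of the 78 genes (SD over mice 3.32 on the log2 scale, log2 fold change 0.40 ± 1.22 SE). With limma-voom in place of edgeR the log2 fold change was 3.05 (unadjusted p = 0.212). The copy Gm15772 had 298, 1974 and 2509 counts in the controls and 0, 2152 and 1903 in MitoParks. In control 3 all counts went to the copy, and in MitoPark 1 all went to Rpl26. By counting error alone, the 0 counts of Rpl26 in control 3 allow up to 0.293 CPM. That limit leaves out how RSEM divided ambiguous reads between Rpl26 and the copy. The sum of both was 2033, 2837 and 2509 counts in the controls and 2329, 2368 and 2400 in MitoParks, or 226, 269 and 245 CPM against 284, 239 and 272 CPM. This sum had an SD over mice of 0.126 on the log2 scale, a correlation of 0.935 with the group median and a log2 fold change of 0.10 ± 0.12 SE (edgeR's quasi-likelihood test, unadjusted p = 0.400).

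Gm15772 lies at chr5:3236431-3236868 on the plus strand of GRCm38 (GENCODE M21) as a gene of its own without introns, while Rpl26 is on chromosome 11. The pseudogene differs from the Rpl26 mRNA at 2 of 438 aligned bases, at positions 177 and 288 counted from the first base of the copy. Those positions lie in bases 204 to 244 and 315 to 355 of the Rpl26 mRNA, which is on the plus strand. A read that lies within the aligned bases and covers neither position cannot be placed. The share of such reads depends on the read length and was not counted. The cause of the uneven division between Rpl26 and its copy was not tested. The stretches around both positions are shown, with the differing base in capitals:
Rpl26, first difference: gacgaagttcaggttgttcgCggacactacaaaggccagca
Gm15772, first difference: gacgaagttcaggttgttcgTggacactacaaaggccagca
Rpl26, second difference: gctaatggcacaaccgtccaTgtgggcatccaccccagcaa
Gm15772, second difference: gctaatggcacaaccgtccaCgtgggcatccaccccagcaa

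Rpl34 and Rpl30 showed the same division. Rpl34 had 439, 411 and 162 counts in the controls and 389, 168 and 223 in MitoParks, and Rpl34-ps1 (chr6:71124610-71124963, plus strand), which differs at 2 of 354 bases, had 119, 330 and 414 counts against 279, 399 and 420. Alone, Rpl34 had the lowest log2 fold change of the 78 genes, -0.21 ± 0.43 SE (unadjusted p = 0.629). Summed with its copy it was at 62.1, 70.4 and 56.3 CPM in the controls and 81.4, 57.3 and 72.9 CPM in MitoParks, with a log2 fold change of 0.16 ± 0.15 SE (unadjusted p = 0.300). Rpl30 held 194, 106 and 71.6 counts in the controls and 126, 110 and 87.7 in MitoParks, while Gm12191 (chr11:49678710-49679057, minus strand), which differs at 1 of 348 bases, held 996 to 1484 counts in each library. The log2 fold change of Rpl30 was -0.08 ± 0.37 SE alone and 0.15 ± 0.11 SE summed with the copy (unadjusted p = 0.198), at 133, 151 and 145 CPM in the controls and 171, 144 and 161 CPM in MitoParks. With copies summed, 78 of 78 genes had a higher fitted level in MitoParks, 0 had an unadjusted p below 0.05 and the median log2 fold change was 0.08.

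**Figure D3:**
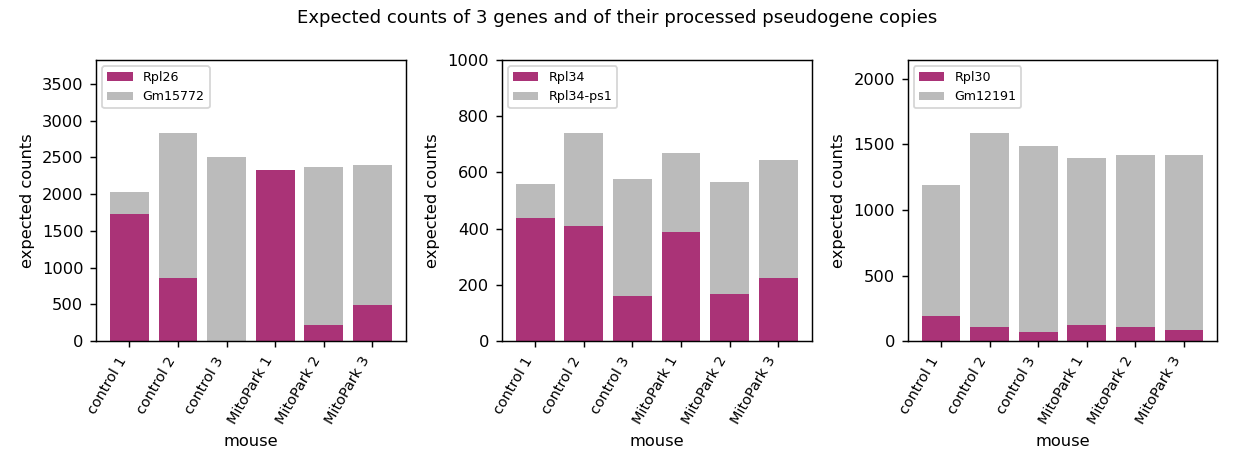
Expected counts (y axis, from 0) of Rpl26, Rpl34 and Rpl30 (purple) and of the processed pseudogene copy of each (grey) in the 6 mice (x axis). The heights of the stacked bars, the sums, vary far less between mice than the purple part, which for Rpl26 runs from 0 in control 3 to 2329 in MitoPark 1.

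Stretches of shared sequence were common, but the similar gene was mostly missing from the deposited table. The windows compared, of 75 bases, are shorter than the reads the paper describes, so a shared window need not make a read ambiguous. In GENCODE M21, 66 of the 78 genes shared at least 100 windows of 75 bases with some other annotated gene, but for only 9 was that gene in the deposited table. In the other 6 of these 9 the ribosomal protein gene held more counts than the similar gene in every library. Rpl14-ps1 had 0 to 163 counts beside 2132 to 3032 for Rpl14, and Rps27rt had 0 counts in all libraries. Fractional expected counts, a sign of ambiguous reads, occurred for 24 of the 78 genes in at least 1 mouse and for 11 in all 6. In a single library they occurred for 15 to 17 of the 78 genes, beside 11.9% to 14.1% of all genes in the table.

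Rps4l, which has the smallest p of the group, is annotated as a transcribed processed pseudogene on chromosome 6 and is related to the X-linked Rps4x. It was at 27.3, 21.9 and 12.4 CPM in the controls and 34.4, 20.6 and 25.4 CPM in MitoParks. MitoPark 1 was the highest and control 3 the lowest of the 6, as in the group, but the spread was wider (SD 0.484 on the log2 scale, against a median of 0.144 over the 78 genes). Its log2 fold change was 0.38 ± 0.28 SE with a 95% interval of -0.24 to 1.00.

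The annotated transcription starts were compared with the TOP motif. RefSeq starts (GRCm38.p6) were available for 57 of the 78 genes, with 68 starts, and 13 of these, in 13 genes, began with C followed by at least 4 further C or T letters, 19.1% of the starts. The same letters began 2.51% of all 32851 mouse starts in that table. The windows below run from 8 bases before to 18 bases from the annotated start on the strand of the gene, with the tract in capitals, and show 5 genes with such a start and 3 abundant genes without it:
Rps6, chr4:86857350-86857375, minus strand: agtcgggcCTCTTTTTCgtgacgcct
Rpl15, chr14:18270969-18270994, minus strand: aaagccttCTTCCTTTCCTCTggcgg
Rps10, chr17:27635227-27635252, minus strand: gcacgcccCTTCCTTTCCagcctccg
Rpl28, chr7:4792957-4792982, plus strand: tcgtgtctCTCTTTCCgtctccggcc
Rplp2, chr7:141447643-141447668, plus strand: gcgtcttcCTTTCgccgccggacgcc
Rpsa, chr9:120127758-120127783, plus strand: atttaaggacgtcatttccggccgcc
Rpl7a, chr2:26910799-26910824, plus strand: cttctttctttctccagcagccgagc
Rpl4, chr9:64173379-64173404, plus strand: tcctgtgggagcagccgggtagagag

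In Rpl7a a pyrimidine run spans the annotated start, whose first base is a T, so a start listed a few bases away would change the count. The letters were searched only at the annotated first base and on the gene's strand. The 13 genes with the motif had a median log2 fold change of 0.08 and the other 44 matched genes one of 0.09. Their median SD over the 6 mice was 0.145 and 0.141 on the log2 scale.

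Other mRNAs of the translation machinery were tested in the same fit. Of 20 tested mRNAs known for a TOP start that are not in the group, 15 had a higher and 5 a lower fitted level in MitoParks, 0 had an unadjusted p below 0.05, and the median log2 fold change was 0.05. Eef1a1, the elongation factor that brings aminoacyl-tRNA to the ribosome, was at 2861 ± 278 CPM (SD, n = 3) in the controls and 3024 ± 74.7 CPM in MitoParks (log2 fold change 0.08 ± 0.13 SE). Eef2, which moves the ribosome along the mRNA, was at 1461 ± 121 and 1453 ± 23.6 CPM (-0.0082 ± 0.12 SE), and Tpt1 at 425 ± 66.9 and 440 ± 24.7 CPM (0.05 ± 0.14 SE). Of ribosomal protein genes outside the naming rule, Fau had a log2 fold change of 0.15 ± 0.15 SE and Rps3a1 of 0.10 ± 0.12 SE. Adding these 2 left the median of the group at 0.08. The 3 paralogs with other names, Rpl36al, Rpl7l1 and Rpl22l1, had log2 fold changes of 0.11 ± 0.11 SE, 0.0045 ± 0.12 SE and -0.05 ± 0.20 SE.

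Of 17 mTOR and TOP regulators, 12 had a higher and 5 a lower fitted level, with 0 unadjusted p below 0.05 and a median log2 fold change of 0.03. Larp1, which binds the TOP tract, had a log2 fold change of 0.07 ± 0.11 SE, and Mtor one of -0.05 ± 0.09 SE. The groups did not overlap for Mtor, at 131, 132 and 138 CPM in the controls and 130, 131 and 126 CPM in MitoParks, but the difference was small beside its SE. Of 60 ribosome biogenesis genes, 26 were higher and 34 lower (median -0.0064), and of 41 other translation factors 18 were higher and 23 lower (median -0.0091), with 0 unadjusted p below 0.05 in either list. The 77 genes of mitochondrial ribosomal proteins, which form the separate ribosome of the organelle whose DNA Tfam maintains, had 33 higher and 44 lower, 0 with an unadjusted p below 0.05 and a median of -0.01.

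Over the 6 mice the median correlation between pairs of genes was 0.789 within the 78 cytosolic ribosomal protein genes, 0.806 within the 40S and 0.777 within the 60S genes. It was 0.337 within the other TOP mRNAs, 0.291 within the mitochondrial ribosomal proteins, 0.153 within the other translation factors and 0.0358 within ribosome biogenesis. These values describe 6 libraries that differ in depth and make-up, and the lists differ in level, so they carry no test.

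**Figure D4:**
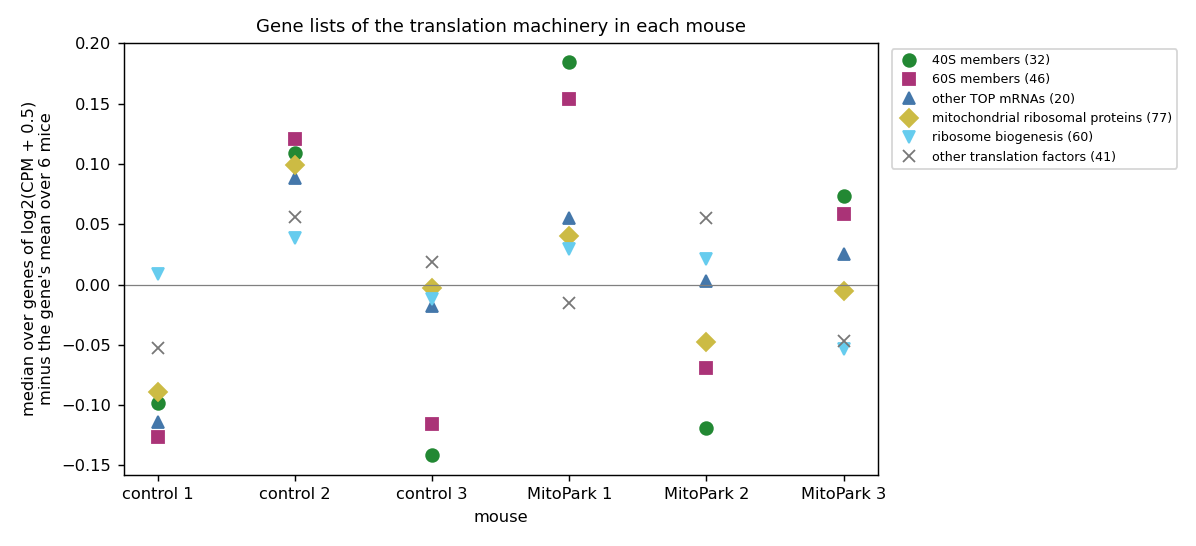
Median over the genes of each list of log2(CPM + 0.5) minus the gene's mean over the 6 mice (y axis), for each mouse (x axis), with a marker per list and the number of genes in the legend. The 40S and 60S markers lie close together in every mouse, between -0.14 in control 3 and 0.18 in MitoPark 1, and the ribosome biogenesis genes stay between -0.05 and 0.04.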

How the data were processed

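The authors sequenced poly(A) RNA with strand-marking libraries and single-end reads, mapped them to UCSC transcripts with Bowtie2 2.1.0 and deposited RSEM 1.2.15 expected counts per gene, which divide ambiguous reads between genes. The submitters' notes list hg38 for these mouse samples, and the build of the UCSC transcripts was not given in the sources used here. Columns named Treat were taken as the MitoPark samples of the same number.

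Expected counts were rounded. Genes with a mean above 1 CPM in at least 1 group were normalized by TMM and tested with edgeR 4.0.16 (quasi-likelihood, R 4.3.3), with Benjamini-Hochberg adjustment over all genes, after a check on simulated data. limma 3.58.1 (voom) and DESeq2 1.42.0 were alternatives. Levels on the log2 scale used a pseudocount of 0.5. P-values measure the spread between 3 mice per group. Intervals for a count of 0 cover counting error only.

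Named genes are the 5 highest and 5 lowest log2 fold changes, the 4 most and 4 least abundant, and genes chosen for their role. A gene that this rule names is not reported here. Rpl22, Rps15, Rps27, Larp1, Mtor, Rps3a1, the paralogs with other names, the genes with printed starts and those named for shared reads were chosen after their values were seen. The members and lists were chosen with earlier results of these data known. Copies were found in GENCODE M21, starts and windows in RefSeq (GRCm38.p6). Same-numbered mice did not deviate together in every pair (correlations 0.327, -0.0698 and 0.258), so they were not treated as pairs. No library duplicated another.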

Additional observations from a re-analysis of the deposited data

How the results depend on the processing

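The median log2 fold change of the 78 genes stayed between 0.08 and 0.10 with all 6 mice under other scalings (RLE, upper quartile, total counts, TMM without the 78 genes), without the low-count filter, with a minimum of 10 CPM, DESeq2, limma-voom, a replicate block, and, chosen after seeing the data, with copies summed or Rps3a1 and Fau added. With 1 mouse left out it ranged from 0.03 to 0.16 and 57 to 77 genes were higher in MitoParks. The replicate block left 77 of 78 higher and gave 1 gene with an unadjusted p below 0.05, Rps4l (log2 fold change 0.41, edgeR's unadjusted p = 0.045 and adjusted p = 0.9999). Leaving out 1 mouse gave 0 to 1 such genes, Rps20 without MitoPark 2 (log2 fold change 0.31). Over the whole table the number of genes with an unadjusted p below 0.05, 161, became 242 without the filter, 96 with DESeq2, 323 with the replicate block and 97 to 657 with 1 mouse left out.

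Of 288 values of named genes with all mice, 283 kept direction and side of the threshold and 4 reversed: Rpl30 to 0.072 with limma-voom, 0.024 with the replicate block and 0.15 summed with its copy, and Rpl34 to 0.16 summed with its copy. In the sums, the added reads of the copy are the change made, and the cause of the other 2 reversals was not tested. Rpl26 kept its direction but moved from 0.40 to 3.05 with limma-voom and to 0.69 with the replicate block. With 1 mouse left out, 19 of 144 values reversed. The ranges were -0.034 to 0.16 for Rpl24, -1.23 to 1.55 for Rpl26, -0.00024 to 0.16 for Rpl3, -0.38 to 0.51 for Rpl30, -0.70 to 0.12 for Rpl34, -0.031 to 0.097 for Rpl5, -0.036 to 0.075 for Rpl7a, -0.0039 to 0.13 for Rplp0, -0.054 to 0.31 for Rplp1, -0.048 to 0.19 for Rplp2 and -0.0075 to 0.15 for Rps27a.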
